A study of Mus musculus with 9 samples.

Results

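The integrins and cell adhesion molecules described here are 41 genes, chosen by name from a table of 57238 entries. They comprise 12 integrin alpha chains, 6 integrin beta chains, 12 adhesion molecules of the immunoglobulin type, 3 molecules of the selectin pathway and sialomucins, 3 syndecans, 2 receptor-type phosphatases, and Cd44, Cdh1 and Cd6 as single members of their kinds. All 41 passed the filter on low counts. Their RNA levels were read from 9 libraries of dendritic cells grown from the bone marrow (BMDCs) of wildtype C57BL/6 mice with 20 ng/ml of the growth factor GM-CSF for 6 days by the labels, with a longer culture in the study's methods. The CTR group was left without exosomes. The NE group was given vesicles shed by NIH-3T3, mouse fibroblasts that are not of tumor origin, and the TDE group vesicles shed by tumor cells whose line the labels do not name, each for 24 h. Each group had 3 libraries. The labels name no sort of the cells, the study's methods call the BMDCs purified before RNA extraction without saying in that place how, and no source states whether the libraries of a group came from separate mice or cultures, so the p-values measure the spread between these libraries, which may be technical.

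Integrins are surface receptors made of 1 alpha and 1 beta chain, and the pairing decides the ligand. The beta 2 chain (Itgb2) pairs on leukocytes with Itgal to form LFA-1, with Itgam to form Mac-1 and with Itgax, the chain known as CD11c that is used to identify dendritic cells. Their ligands include the intercellular adhesion molecules of the immunoglobulin type, while selectin ligands slow rolling leukocytes, cadherins and nectins join neighboring cells, and syndecans carry heparan sulfate chains that hold matrix proteins and chemokines. Dendritic cells use these molecules to leave tissue, to enter lymph nodes and to form contacts with T cells.

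The libraries held between 17469782 and 21092943 estimated reads on genes. Levels are given as CPM, read counts scaled to library size after normalization by the trimmed mean of M values, and values of single libraries are in the order of replicates 1, 2 and 3. A count of 3 reads, taken as the detection floor, stood for 0.135 to 0.190 CPM. A gene was called when its adjusted p in edgeR's quasi-likelihood test across 15028 genes was under 0.05, and each log2 fold change is given with its standard error. The intervals and floors cover counting error only. CTR replicate 1 stood apart: its correlation with the other 8 libraries, over log2 CPM, was 0.827 to 0.900, against 0.941 to 0.990 between all other pairs. Its 2254 genes longer than 5000 bases had a median log2 ratio of -0.90 and its 3374 genes shorter than 1500 bases a median of 1.15 against the other CTR libraries. Of the 11 adhesion genes longer than 5000 bases, 9 were lower in CTR replicate 1 than in the mean of the other CTR libraries (median log2 ratio -1.24), while 5 of the 9 shorter than 2500 bases were higher (median 0.01). The part of gene length in any single result was not tested beyond the fits without this library and with offsets fitted to gene length. With such offsets 12 members were called higher and 13 lower in TDE against CTR (11.4% and 13.5% of all genes), and 11 and 12 against NE (10.6% and 10.5%).

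**Figure D1:**
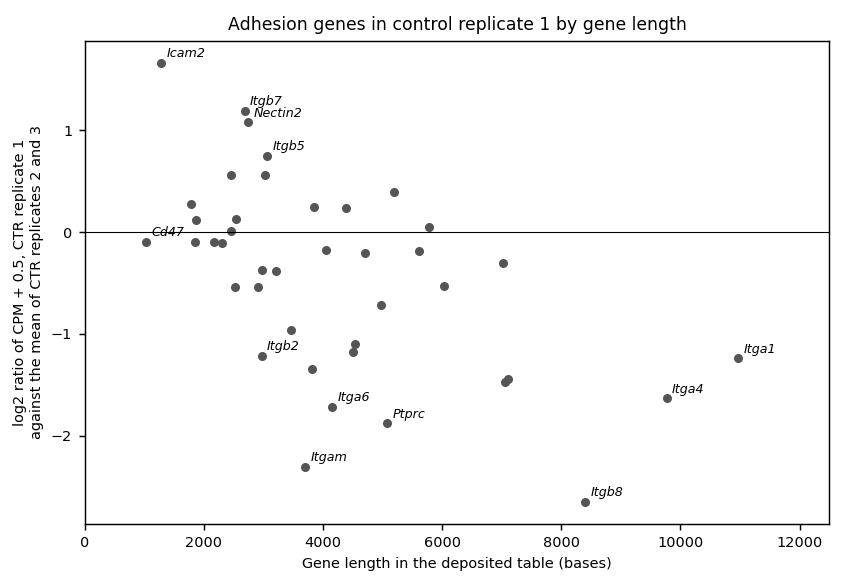
Each point is 1 of the 41 adhesion genes, with its length in bases on the horizontal axis and, on the vertical axis, the log2 ratio of CPM + 0.5 in CTR replicate 1 to the mean of CTR replicates 2 and 3. Of the 11 genes longer than 5000 bases, 9 lie below 0, and Icam2, Itgb7, Nectin2 and Itgb5 lie highest.

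Promoter sequences are shown for 4 members: Itgam and Itgax, neighboring genes that encode partners of the beta 2 chain, Icam1, a ligand of that integrin group, and Ptprm, which was near the floor without tumor exosomes. Icam1 and Ptprm were called in TDE against CTR and against NE, Itgax only against NE and Itgam in neither. Each is the 250 bases before the RefSeq start site on build GRCm38.p6, written 5′ to 3′ on the strand of the gene. They lie at chr7:128062390-128062639 for Itgam, chr7:128129300-128129549 for Itgax and chr9:21015690-21015939 for Icam1, all on the plus strand, and at chr17:67354460-67354709 for Ptprm, on the minus strand. Capitals mark matches on either strand to the motifs searched, which were TGANTCA (AP-1), GGGNNNTTCC (kappaB), TTCNNNGAA (STAT), GAGGAA (PU.1 core), TGACGTCA (CRE), TTGCNNAA (C/EBP) and GAAANNGAAA (IRF).
Itgam: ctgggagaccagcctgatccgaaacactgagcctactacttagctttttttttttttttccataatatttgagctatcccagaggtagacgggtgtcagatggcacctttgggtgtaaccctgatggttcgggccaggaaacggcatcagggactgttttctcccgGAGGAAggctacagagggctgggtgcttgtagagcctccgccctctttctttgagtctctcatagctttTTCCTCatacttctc
Itgax: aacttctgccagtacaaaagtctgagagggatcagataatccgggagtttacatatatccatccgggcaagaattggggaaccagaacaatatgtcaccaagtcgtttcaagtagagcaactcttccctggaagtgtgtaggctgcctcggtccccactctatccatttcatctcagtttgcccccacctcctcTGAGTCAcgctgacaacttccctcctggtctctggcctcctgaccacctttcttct
Icam1: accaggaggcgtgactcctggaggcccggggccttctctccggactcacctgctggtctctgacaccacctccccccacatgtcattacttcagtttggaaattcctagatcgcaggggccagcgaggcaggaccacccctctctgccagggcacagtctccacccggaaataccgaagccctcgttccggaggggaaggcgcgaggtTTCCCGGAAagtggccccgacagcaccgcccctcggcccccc
Ptprm: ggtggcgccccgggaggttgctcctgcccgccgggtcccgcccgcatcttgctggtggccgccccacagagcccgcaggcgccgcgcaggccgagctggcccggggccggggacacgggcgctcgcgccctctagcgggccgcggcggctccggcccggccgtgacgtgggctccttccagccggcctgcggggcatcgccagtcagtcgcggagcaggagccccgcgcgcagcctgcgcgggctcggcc

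In these windows Itgam held the PU.1 core at -84 and, on the opposite strand, at -15, Itgax the AP-1 letters at -56, Icam1 the STAT letters at -42 and Ptprm none of the 7 motifs. Among all 32851 RefSeq mouse promoters of this length, 23.3% held the PU.1 core, 6.75% AP-1, 7.02% STAT, 9.56% C/EBP, 4.65% kappaB, 2.98% IRF and 1.55% CRE. Of the 41 members, 26 matched the promoter table, with 29 promoters, of which 10 held the PU.1 core, 2 AP-1 (Itgax and F11r), 1 STAT, 1 kappaB (Sdc4), 1 C/EBP (Sdc1), 1 IRF (Itga3) and 0 CRE. A match describes the letters only.

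To find out how adhesion genes differed with tumor exosomes, TDE-treated BMDCs were compared with CTR and with NE-treated BMDCs. Against CTR, 11 of the 41 members were higher and 9 were lower, where 7.57% and 9.34% of all genes tested were called higher and lower. Against NE, 10 were higher and 11 were lower, beside 6.73% and 7.21% of all genes. These comparisons share the 3 TDE libraries, so their values stand side by side and are not independent. The median size of a member's log2 fold change was 0.81 against CTR and 0.79 against NE, where the medians over all genes tested were 0.50 and 0.34. No member passed the test between NE and CTR. In TDE-treated BMDCs the genes called higher covered the alpha chains Itga9 and Itgal, the junctional molecules F11r, Nectin2, Pvr and Pecam1, the sialomucin Spn, the phosphatase Ptprm and the syndecans Sdc3 and Sdc4, each called in both comparisons. The genes called lower in both were the beta chains Itgb3, Itgb5 and Itgb7, with Icam1, Vcam1, Alcam, Cadm1, Cd226 and Cdh1. Cd47 passed only against CTR, and Itgax and Cd44 passed only against NE. The remaining 19 passed in neither. In bulk RNA such as this, fewer cells of a type and less RNA per cell cannot be told apart.

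**Figure D2:**
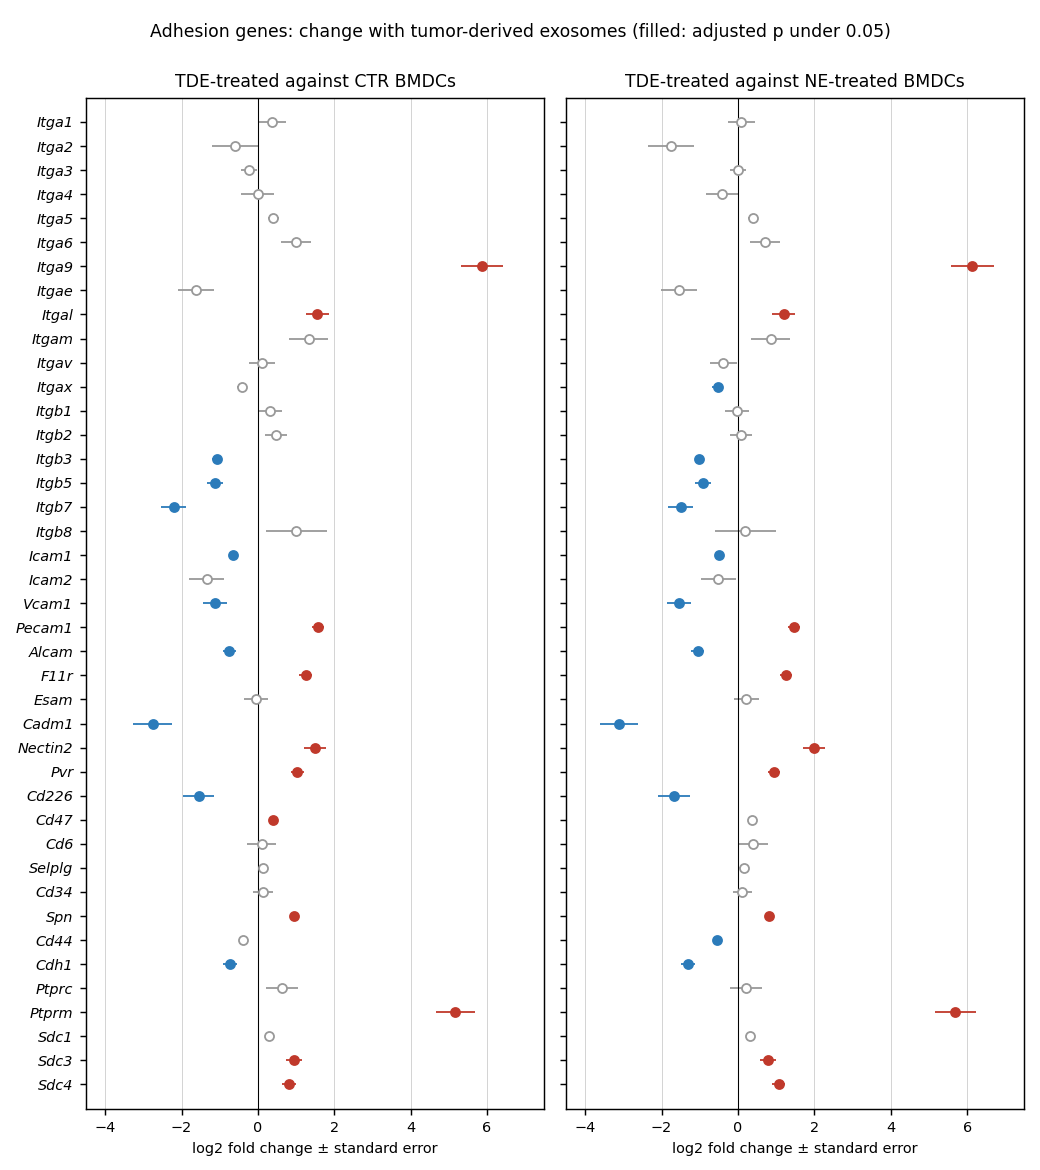
The log2 fold change of each of the 41 adhesion genes in TDE-treated BMDCs is plotted with its standard error against CTR (left) and against NE-treated BMDCs (right), with red for genes called higher, blue for genes called lower and open grey points for genes not called. Itga9 and Ptprm lie farthest to the right at over 5 log2 units, and Cadm1 lies farthest to the left in both panels.

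The libraries of the groups did not overlap for more genes than the test called. All 3 TDE libraries lay above all 3 CTR libraries for 18 members and below them for 13, where 22.2% and 21.8% of all genes did so. Against NE the counts were 17 above and 16 below, where the shares of all genes were 26.8% and 27.7%. When CTR replicate 1 was left out, 15 members were called higher and 13 lower against CTR (16.4% and 18.0% of all genes), and 15 were higher and 15 lower against NE (19.2% and 21.5% of all genes). Members that passed there but not with all libraries are described with their own values, for Itga5, Itga6, Sdc1 and Icam2 against CTR only. In that fit Itga5, Itga6 and Sdc1 were also called higher against NE, and Icam2 lower.

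Per kilobase of gene length, the scale on which genes can be compared with each other, the adhesion genes spanned a wide range in CTR BMDCs. Averaged over all libraries, 7 members lay above 100 CPM per kilobase and 10 lay below 1. In CTR BMDCs the order began with Itgam at 359 ± 229 CPM per kilobase (SD, n = 3), Itgb2 at 358 ± 145, Cd47 at 250.5 ± 9.24, Selplg at 185 ± 14.9 and Ptprc at 153 ± 86.0. Among these neighbors only Cd47 and Selplg lay apart beyond the spread of their libraries. At the bottom stood Itga2 at 0.138 ± 0.102, Ptprm at 0.0359 ± 0.0226 and Itga9 at 0.0112 ± 0.0100. In TDE-treated BMDCs the same 5 genes led, with Itgam at 900 ± 36.3, Itgb2 at 495 ± 9.60, Cd47 at 332 ± 6.43, Ptprc at 236 ± 8.04 and Selplg at 202 ± 2.25, and no neighbors in that order overlapped. Itgae, at 0.0567 ± 0.0388, was then lowest, and Itga9, at 0.760 ± 0.119, had moved up to rank 32 of 41.

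**Figure D3:**
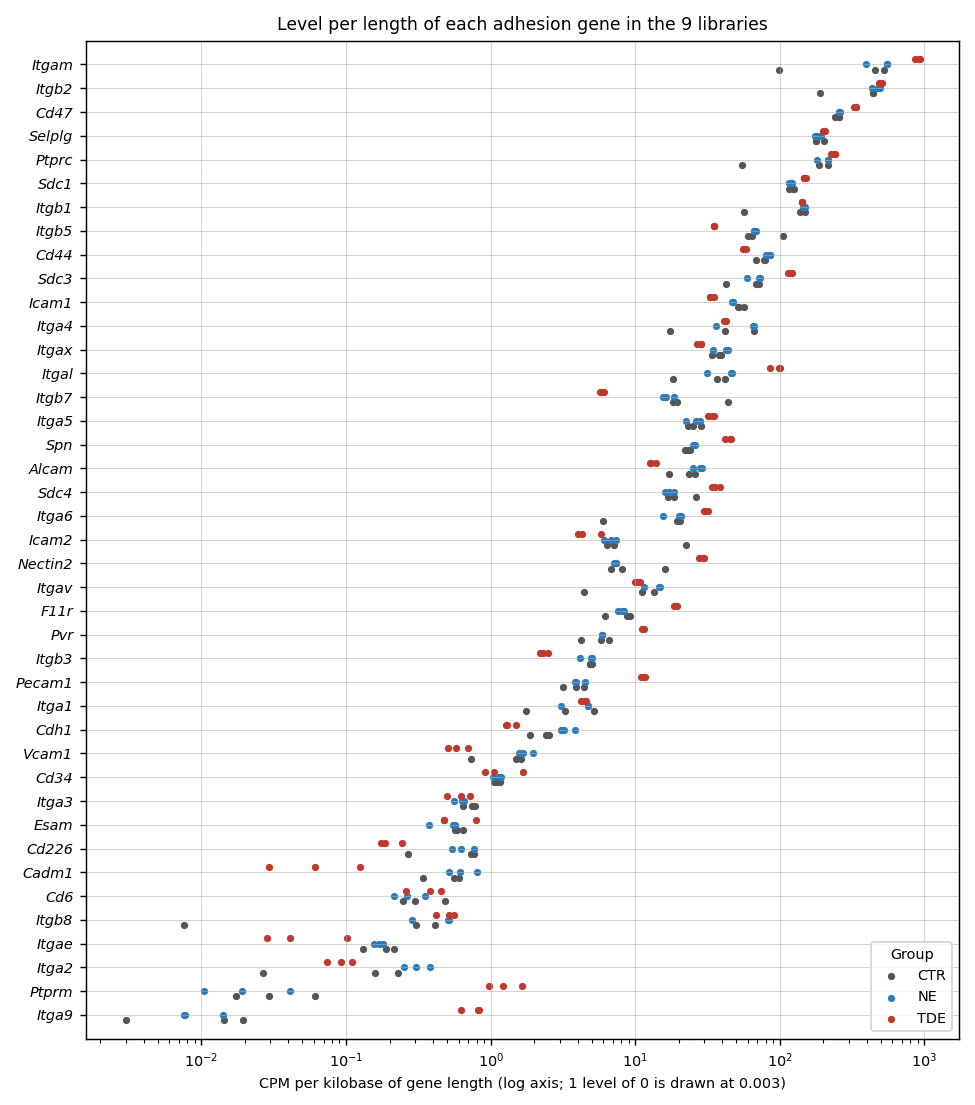
Every point is 1 library, with CPM per kilobase of gene length on a log axis and the 41 genes ordered by their mean in CTR BMDCs (grey), beside NE (blue) and TDE (red). The TDE points of Itga9 and Ptprm lie to the right of all CTR and NE points of these genes, and the CTR replicate 1 points of Itgam, Ptprc and Itgb8 lie to the left of the other libraries.

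Of the 12 integrin alpha chains, 2 passed the test as higher against CTR, Itga9 and Itgal, and none as lower. That was 16.7% of the class beside 16.9% of all genes called in either direction, so the class stood near the background. Itga9 pairs with the beta 1 chain and binds tenascin, osteopontin and Vcam1; the gene lies at chr9:118606690-118901003 on build GRCm38, plus strand. It measured 0, 0.135 and 0.101 CPM in the CTR libraries, 0.0531, 0.0542 and 0.0994 in the NE libraries and 4.38, 5.79 and 5.85 in the TDE libraries. All 6 libraries without tumor exosomes lay at or below the floor, and the TDE libraries did not overlap with them. The difference in TDE-treated BMDCs was 5.87 ± 0.54 on the log2 scale against CTR (edgeR adjusted p = 0.000446) and 6.13 ± 0.56 against NE (edgeR adjusted p = 0.000344). These fitted values depend on the few reads of the other groups. Over pooled reads, 297 in TDE stood against 5 in CTR, a ratio of 61.8 with an exact 95% counting interval of 26.2 to 192, and against 4 in NE, a ratio of 76.8 with an interval of 29.7 to 284. Even in TDE-treated BMDCs Itga9 was a minor chain, with 0.760 CPM per kilobase beside 143 for Itgb1, its partner. The calls held in all 17 alternatives in which the gene could be fitted.

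Itgal, the alpha chain of LFA-1, measured 82.7, 167 and 189 CPM in the CTR libraries, 210.2, 207 and 143 in the NE libraries and 445, 388 and 456 in the TDE libraries. The TDE libraries were the 3 highest, and CTR replicate 1 was the lowest of all. Itgal rose by 1.55 ± 0.30 on the log2 scale against CTR (edgeR adjusted p = 0.0114) and by 1.20 ± 0.30 against NE (edgeR adjusted p = 0.0324). The Itgal call against CTR held in all 18 alternatives. The Itgal call against NE was lost in 9 of 18 alternatives, among them without CTR replicate 2 or any 1 of the 3 NE libraries or any 1 of the 3 TDE libraries, where edgeR adjusted p ran from 0.0511 to 0.111.

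Itgam, the alpha chain of Mac-1, measured 366, 1671 and 1951 CPM in the CTR libraries, 2028, 2045 and 1466 in the NE libraries and 3386, 3179 and 3431 in the TDE libraries. All TDE libraries lay above the others, and CTR replicate 1 lay far below the other CTR libraries. The log2 difference was 1.33 ± 0.51 against CTR and 0.85 ± 0.50 against NE, which did not pass the test (edgeR adjusted p = 0.108 and 0.349). Without CTR replicate 1 the differences were 0.87 and 0.84, and both passed (edgeR adjusted p = 0.00192 and 0.000853). With offsets fitted to gene length Itgam was called in neither comparison, and DESeq2 called it only against CTR. The fit to the 6 libraries of the pair called Itgam higher only against NE, and limma voom in both comparisons. The other alternatives did not call it. The annotation lists a gene, Gm49368, that shares 68.7% of the exonic bases of Itgam on the same strand, so the split of reads between them is uncertain. Gm49368 took 13.4% of the reads of the pair in CTR replicate 1 and 0.487% to 0.764% in the other libraries.

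Itgax, or CD11c, measured 138, 153 and 158 CPM in the CTR libraries, 178, 172 and 139.9 in the NE libraries and 115, 107 and 115 in the TDE libraries. Its TDE libraries were the 3 lowest, with a gap to CTR replicate 1 as the nearest. Itgax fell against NE, with a log2 difference of -0.54 ± 0.14 (edgeR adjusted p = 0.0327), and differed by -0.41 ± 0.14 against CTR without passing the test (edgeR adjusted p = 0.0733). The Itgax call against NE was lost in 9 of 18 alternatives, among them without CTR replicate 2 or NE replicate 1 or 2 or any 1 of the 3 TDE libraries, where edgeR adjusted p ran from 0.0589 to 0.147. With CTR replicate 1 left out, Itgax passed in both comparisons, with -0.47 against CTR (edgeR adjusted p = 0.00746). Itgax thus lay on the other side of 0 from Itgal and Itgam, while their shared partner Itgb2 measured 566, 1308 and 1316 CPM in the CTR libraries, 1464, 1414 and 1283 in the NE libraries and 1473, 1442 and 1499 in the TDE libraries. The libraries other than CTR replicate 1 lay close together, and the gene differed by 0.47 ± 0.29 against CTR and 0.09 ± 0.29 against NE on the log2 scale (edgeR adjusted p = 0.279 and 0.923).

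Ratios of chains inside 1 library do not depend on how libraries are scaled. They can still depend on a shift with gene length between libraries where the chains differ in length, which was not tested. Itga4 has 9767 bases and Itgb7 2683, and Itgav has 7054 and Itgb5 3056. The ratios were computed per length, with the pairs chosen after the values had been seen, and are given as a description. Itgal to Itgax stood at 0.861 ± 0.285 in CTR, 1.01 ± 0.0896 in NE and 3.41 ± 0.164 in TDE (SD, n = 3). The groups overlapped between CTR and NE, and all TDE ratios were above 3. Itgam to Itgax stood at 9.46 ± 5.73, 12.3 ± 0.780 and 32.4 ± 0.281, with CTR replicate 1 at 2.91 and the other CTR libraries at 11.9 and 13.5. As a share of the 3 alpha chains, Itgax made up 12.0% ± 9.07 in CTR, 6.998% ± 0.433 in NE and 2.72% ± 0.0269 in TDE.

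**Figure D4:**
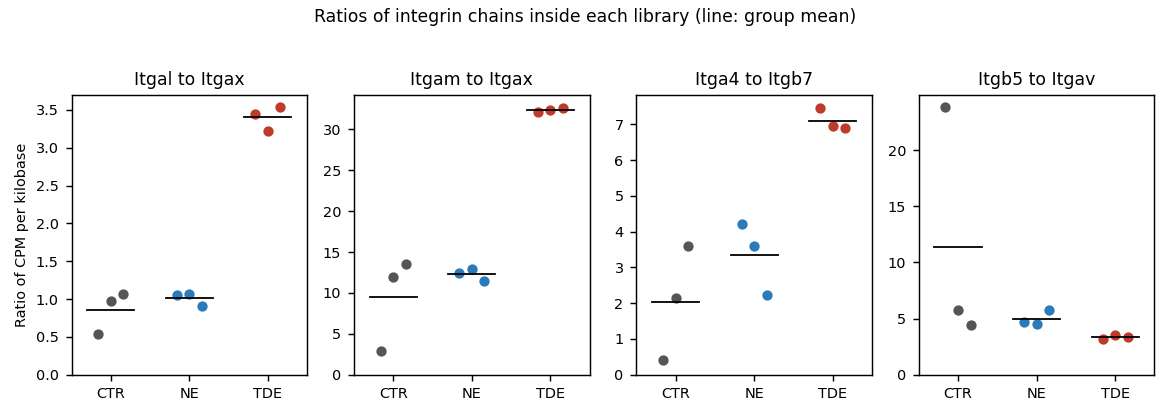
Each point is the ratio of 2 chains, in CPM per kilobase, inside 1 library, with a line at the mean of the 3 libraries of a group. The 3 TDE libraries lie above all others for Itgal to Itgax, Itgam to Itgax and Itga4 to Itgb7 and below all others for Itgb5 to Itgav, and CTR replicate 1 lies apart in each panel.

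The other 8 alpha chains passed the test in neither comparison when all libraries were fitted. Itga5, the fibronectin receptor chain, ranged from 97.9 to 124 CPM in CTR and NE libraries and from 139.8 to 154 in TDE libraries, without overlap. Itga6, a laminin receptor chain, ranged from 24.8 to 85.9 CPM and from 124 to 132, also without overlap. Both passed when CTR replicate 1 was left out, Itga5 with 0.47 and Itga6 with 0.61 on the log2 scale against CTR (edgeR adjusted p = 0.00767 and 0.0041). With offsets fitted to gene length Itga5 was called in neither comparison and Itga6 only against CTR. Itga2, a collagen receptor chain, and Itgae, the CD103 chain that binds Cdh1, lay at or below 2.71 CPM in every library and did not pass, with log2 differences of -1.76 ± 0.60 and -1.54 ± 0.48 against NE (edgeR adjusted p = 0.094 and 0.0705). The log2 difference of Itga2 against CTR was -0.60 ± 0.61 (edgeR adjusted p = 0.492), and without CTR replicate 1 it was -1.08 against CTR and -1.77 against NE, both passing (edgeR adjusted p = 0.033 and 0.00136). Itgae and Itgav passed against NE in that fit, with -1.55 and -0.39 (edgeR adjusted p = 0.0287 and 0.0235). With offsets fitted to gene length Itga2 passed only against NE, Itgae only against CTR and Itgav in neither comparison. For Itgae, 12 pooled TDE reads stood against 39 in CTR, which were 3.12 times as many after scaling, with an exact 95% counting interval of 1.60 to 6.55. Itga1, Itga3, Itga4 and Itgav had log2 differences of 0.38 ± 0.35, -0.24 ± 0.21, -0.00185 ± 0.43 and 0.10 ± 0.35 against CTR. The CTR libraries of Itga4 ran from 169.7 to 645 CPM.

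Of the 6 integrin beta chains, 3 passed as lower in TDE-treated BMDCs in both comparisons and none passed as higher. Of all genes tested, 9.34% were called lower against CTR and 7.21% against NE. Itgb3, which pairs with Itgav to bind vitronectin and with Itga2b on platelets, measured 29.2, 28.3 and 27.95 CPM in the CTR libraries, 29.2, 28.7 and 23.97 in the NE libraries and 13.4, 14.5 and 12.7 in the TDE libraries. The TDE libraries held the 3 lowest values, and CTR and NE overlapped. Itgb3 fell by a log2 difference of -1.07 ± 0.13 against CTR (edgeR adjusted p = 0.00131) and -1.01 ± 0.13 against NE (edgeR adjusted p = 0.0016), and these calls held in all 18 alternatives.

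Itgb5, which pairs with Itgav and takes part in the uptake of dying cells by dendritic cells, measured 322, 197 and 185 CPM in the CTR libraries, 208, 204 and 202 in the NE libraries and 106, 108 and 108 in the TDE libraries. Here CTR replicate 1 was the highest library, and the TDE libraries lay close together. The log2 difference was -1.13 ± 0.21 against CTR (edgeR adjusted p = 0.00889) and -0.93 ± 0.21 against NE (edgeR adjusted p = 0.0209). When the fit left out CTR replicate 1, it was -0.84 against CTR. The Itgb5 call against CTR held in all 18 alternatives. The Itgb5 call against NE was lost in 7 of 18 alternatives, among them without any 1 of the 3 NE libraries or any 1 of the 3 TDE libraries, where edgeR adjusted p ran from 0.0667 to 0.088. Itgav itself, the shared partner, did not pass, and Itgb5 to Itgav per length stood at 3.37 ± 0.165 in TDE, 4.97 ± 0.676 in NE and 11.4 ± 10.8 in CTR (SD, n = 3).

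Itgb7, which pairs with Itga4 for homing to gut and with Itgae, measured 117, 52.5 and 49.2 CPM in the CTR libraries, 41.5, 49.4 and 43.5 in the NE libraries and 15.2, 15.9 and 16.2 in the TDE libraries. The TDE libraries lay at 15.2 to 16.2 CPM, below all others, and CTR replicate 1 was the highest. Itgb7 fell by a log2 difference of -2.21 ± 0.32 against CTR (edgeR adjusted p = 0.00359) and -1.51 ± 0.32 against NE (edgeR adjusted p = 0.0161). Without CTR replicate 1 the difference against CTR was -1.70 (edgeR adjusted p = 3.62e-06). The Itgb7 call against CTR held in all 18 alternatives. The Itgb7 call against NE was lost in 5 of 18 alternatives, namely without NE replicate 2 or 3 or any 1 of the 3 TDE libraries, where edgeR adjusted p ran from 0.052 to 0.0723. Per length, Itga4 to Itgb7 stood at 2.05 ± 1.60 in CTR, 3.34 ± 1.02 in NE and 7.10 ± 0.306 in TDE (SD, n = 3).

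The beta 1 chain Itgb1, the partner of most matrix-binding alpha chains, measured 214, 525 and 567 CPM in the CTR libraries, 566, 551 and 559 in the NE libraries and 546, 546 and 546 in the TDE libraries. Apart from CTR replicate 1, its libraries lay between 525 and 567 CPM, and the log2 difference was 0.33 ± 0.31 against CTR and -0.03 ± 0.31 against NE. Itgb8, which binds latent TGF-beta, had 0.0634 CPM in CTR replicate 1 and 2.39 to 4.66 CPM elsewhere, and was not called (edgeR adjusted p = 0.389 against CTR).

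The 12 members of the immunoglobulin type held 5 genes called higher and 5 called lower against CTR, the largest share of any class with more than 1 member. Of all genes tested, 7.57% were called higher and 9.34% lower in that comparison. Icam1, the main ligand of LFA-1 and Mac-1, measured 143, 129.96 and 131 CPM in the CTR libraries, 121, 119 and 119 in the NE libraries and 83.9, 83.5 and 88.9 in the TDE libraries. The 3 groups did not overlap at all, with CTR highest and TDE lowest. Icam1 fell by a log2 difference of -0.66 ± 0.11 against CTR (edgeR adjusted p = 0.0057) and -0.49 ± 0.11 against NE (edgeR adjusted p = 0.0198). The Icam1 call against CTR held in all 18 alternatives. The Icam1 call against NE was lost in 9 of 18 alternatives, among them without any 1 of the 3 NE libraries or any 1 of the 3 TDE libraries, where edgeR adjusted p ran from 0.0604 to 0.107. On the opposite strand Gm47079 shares 11.7% of the exonic bases of Icam1, and the strand of counting is not stated. Icam2, a second LFA-1 ligand, had 28.6 CPM in CTR replicate 1, 7.80 to 9.40 in the other CTR and NE libraries and 5.15 to 7.47 in TDE. It did not pass (log2 difference -1.33 ± 0.46, edgeR adjusted p = 0.0818 against CTR). Against NE it was called lower in the fit to the 6 libraries of the pair, with limma voom and without CTR replicate 1. It did pass against CTR in 5 alternatives, namely DESeq2, limma voom, offsets fitted to gene length, without CTR replicate 1 at a log2 difference of -0.53 (edgeR adjusted p = 0.0416), and without CTR replicate 3 at -1.62 (edgeR adjusted p = 0.0332). 

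Vcam1, a ligand of integrins with Itga4 or Itga9, measured 2.54, 5.60 and 5.20 CPM in the CTR libraries, 5.47, 5.80 and 6.86 in the NE libraries and 1.77, 2.40 and 1.99 in the TDE libraries. All TDE libraries were below the others, with CTR replicate 1 nearest to them. The log2 difference was -1.12 ± 0.31 against CTR (edgeR adjusted p = 0.0424) and -1.55 ± 0.31 against NE (edgeR adjusted p = 0.0129). The Vcam1 call against CTR was lost in 12 of 18 alternatives, among them without CTR replicate 2 or 3 or any 1 of the 3 NE libraries or any 1 of the 3 TDE libraries, where edgeR adjusted p ran from 0.0642 to 0.156. The Vcam1 call against NE was lost in 3 of 18 alternatives, namely without NE replicate 3 or TDE replicate 1 or 3, where edgeR adjusted p ran from 0.0511 to 0.0681.

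Alcam, or CD166, binds CD6 on T cells and stabilizes their contact with dendritic cells. It measured 103, 141 and 158 CPM in the CTR libraries, 174, 170.5 and 153 in the NE libraries and 83.96, 77.96 and 76.8 in the TDE libraries. The TDE libraries were the 3 lowest, and CTR replicate 1 was the lowest of the others. Alcam fell by a log2 difference of -0.75 ± 0.17 against CTR (edgeR adjusted p = 0.02) and -1.06 ± 0.17 against NE (edgeR adjusted p = 0.00485). The Alcam call against CTR was lost in 8 of 18 alternatives, among them without CTR replicate 2 or any 1 of the 3 TDE libraries, where edgeR adjusted p ran from 0.0589 to 0.0957. The Alcam call against NE held in all 18 alternatives. Cd6, its receptor, lay between 0.651 and 1.46 CPM with all groups overlapping, and the log2 difference was 0.10 ± 0.37 against CTR.

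Cadm1, a homophilic adhesion molecule known as a marker of conventional dendritic cells of the cross-presenting type, measured 1.08, 0.993 and 0.605 CPM in the CTR libraries, 1.43, 0.922 and 1.09 in the NE libraries and 0.222, 0.109 and 0.0522 in the TDE libraries. The groups with and without tumor exosomes did not overlap, and the TDE libraries were near the floor. Over pooled reads, 7 in TDE stood against 51 in CTR, which were 7.003 times as many after scaling (exact 95% counting interval 3.16 to 18.3), and against 66 in NE, which were 9.12 times as many (4.19 to 23.6). The fitted log2 difference was -2.75 ± 0.51 against CTR (edgeR adjusted p = 0.00886) and -3.12 ± 0.51 against NE (edgeR adjusted p = 0.00507). The Cadm1 call against CTR was lost in 1 of 17 alternatives, namely without TDE replicate 2, where edgeR adjusted p was 0.0508, and the Cadm1 call against NE held in all 17 alternatives.

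Nectin2 and Pvr are related junctional molecules that bind the activating receptor Cd226 on T and NK cells. Nectin2 measured 43.6, 22.2 and 18.6 CPM in the CTR libraries, 19.6, 20.1 and 20.3 in the NE libraries and 82.1, 75.7 and 79.9 in the TDE libraries. The TDE libraries were the 3 highest, and CTR replicate 1 lay between them and the other CTR libraries. Nectin2 rose by 1.5 ± 0.29 on the log2 scale against CTR (edgeR adjusted p = 0.0107) and by 1.99 ± 0.29 against NE (edgeR adjusted p = 0.00343). With that control library left out, the difference against CTR was 1.95. The Nectin2 call against CTR was lost in 1 of 18 alternatives, namely the fit to the 6 libraries of the pair (edgeR adjusted p = 0.0584), and the Nectin2 call against NE held in all 18 alternatives.

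Pvr, or CD155, measured 12.2, 16.8 and 19.2 CPM in the CTR libraries, 17.1, 17.2 and 17.2 in the NE libraries and 32.97, 32.5 and 33.4 in the TDE libraries. The TDE libraries were again above all others and differed by less than 1 CPM from each other. Pvr rose by 1.04 ± 0.17 on the log2 scale against CTR (edgeR adjusted p = 0.00516) and by 0.94 ± 0.17 against NE (edgeR adjusted p = 0.0077). The Pvr call against CTR held in all 18 alternatives, and the Pvr call against NE was lost in 1 of 18 alternatives, namely scaling by library totals (edgeR adjusted p = 0.0661). Per length, Nectin2 to Pvr stood at 1.24 ± 0.0181 in NE and 2.55 ± 0.0853 in TDE, while CTR overlapped with both at 2.07 ± 1.49 (SD, n = 3).

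Cd226, the receptor of Nectin2 and Pvr, measured 1.20, 3.30 and 3.43 CPM in the CTR libraries, 2.44, 3.47 and 2.78 in the NE libraries and 0.831, 1.09 and 0.784 in the TDE libraries. Its level was low throughout, the TDE libraries were the 3 lowest, and CTR replicate 1 lay just above them. The log2 difference was -1.55 ± 0.41 against CTR (edgeR adjusted p = 0.0361) and -1.68 ± 0.41 against NE (edgeR adjusted p = 0.0291). The Cd226 call against CTR was lost in 12 of 18 alternatives, among them without CTR replicate 2 or 3 or any 1 of the 3 NE libraries or any 1 of the 3 TDE libraries, where edgeR adjusted p ran from 0.0597 to 0.138. The Cd226 call against NE was lost in 8 of 18 alternatives, among them without any 1 of the 3 NE libraries or any 1 of the 3 TDE libraries, where edgeR adjusted p ran from 0.0688 to 0.122. The summed level of 9 markers of T and NK cells was 6.36 to 9.89 CPM in CTR, 6.34 to 7.43 in NE and 0.928 to 1.83 in TDE, and its part in the Cd226 values was not tested.

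Pecam1, or CD31, a homophilic molecule of leukocytes, platelets and endothelium, measured 9.44, 13.1 and 11.6 CPM in the CTR libraries, 11.6, 13.4 and 11.5 in the NE libraries and 32.5, 33.96 and 34.7 in the TDE libraries. The TDE libraries stood well above the rest, which overlapped with each other. Pecam1 rose by 1.57 ± 0.15 on the log2 scale against CTR (edgeR adjusted p = 0.00055) and by 1.47 ± 0.15 against NE (edgeR adjusted p = 0.000644). F11r, the junctional adhesion molecule JAM-A that binds LFA-1, measured 15.5, 23.3 and 22.05 CPM in the CTR libraries, 19.1, 20.4 and 20.9 in the NE libraries and 48.5, 47.00 and 49.2 in the TDE libraries. It showed the same order of groups, with no TDE library below 47.0 CPM and no other above 23.3. F11r rose by 1.25 ± 0.17 against CTR (edgeR adjusted p = 0.00222) and by 1.26 ± 0.17 against NE (edgeR adjusted p = 0.00193). The calls of Pecam1 and F11r held in all 18 alternatives in both comparisons. The endothelial markers Cdh5 and Tek lay at or below 0.316 and 0.190 CPM in every library, the 8 endothelial and fibroblast markers summed to 2.85 to 3.88 CPM in CTR, 3.61 to 3.80 in NE and 7.53 to 8.67 in TDE, and the 6 platelet markers to 61.1 to 228, 60.1 to 79.4 and 76.6 to 79.9. Kdr, another endothelial marker of the list, was tested in the fit without CTR replicate 1. It differed there by -0.12 ± 0.38 on the log2 scale against CTR and was not called (edgeR adjusted p = 0.841). The part of these cell types in the Pecam1 and F11r values was not tested.

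Cd47, which signals to SIRP-alpha on phagocytes to spare a cell from uptake, measured 248, 263 and 265 CPM in the CTR libraries, 265, 267 and 265 in the NE libraries and 346, 346 and 335 in the TDE libraries. Its TDE libraries were the 3 highest, and CTR and NE lay close together. The log2 difference was 0.41 ± 0.11 against CTR (edgeR adjusted p = 0.0399) and 0.37 ± 0.11 against NE, the latter not passing the test (edgeR adjusted p = 0.064) except in some alternatives, among them without CTR replicate 1 (0.36, edgeR adjusted p = 0.000976). The Cd47 call against CTR was lost in 12 of 18 alternatives, among them without CTR replicate 2 or any 1 of the 3 NE libraries or any 1 of the 3 TDE libraries, where edgeR adjusted p ran from 0.0599 to 0.147. Esam, an endothelial junction molecule, lay at 0.696 to 1.47 CPM with overlapping groups and a log2 difference of -0.04 ± 0.32 against CTR.

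**Figure D5:**
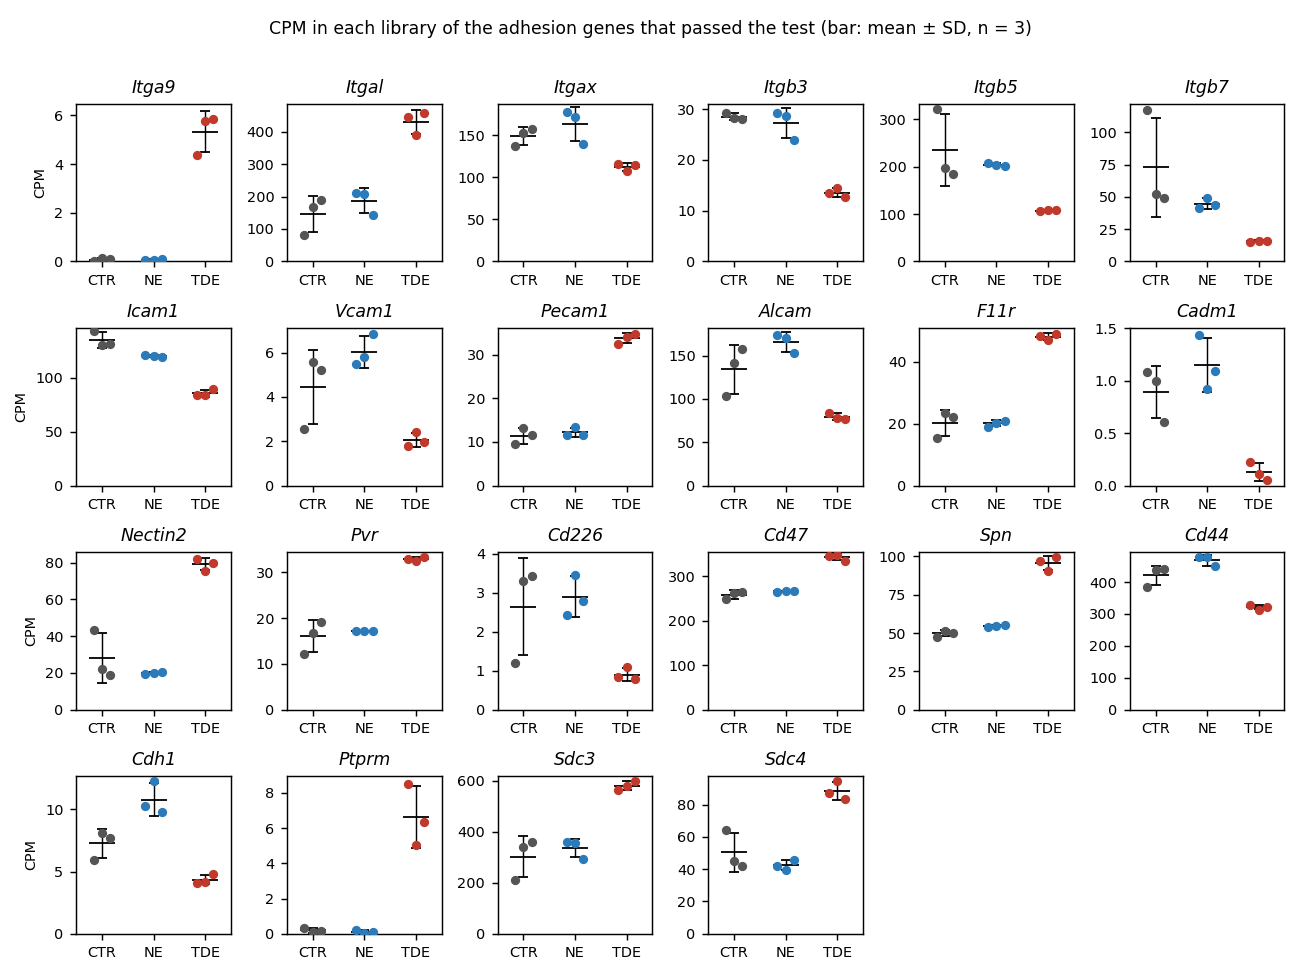
CPM in each library (points) with mean and SD of the 3 libraries is shown for the 22 adhesion genes called in at least 1 of the TDE comparisons, each panel with its own axis from 0. The TDE points lie outside the range of the CTR and NE points in every panel, and CTR replicate 1, the first grey point, stands apart from the other CTR libraries for Itgb5, Itgb7, Nectin2, Sdc3 and Cd226.

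In the selectin pathway and among sialomucins, 1 of 3 members passed, where 16.9% and 13.9% of all genes were called against CTR and NE. Spn, the sialomucin CD43 that keeps leukocytes apart and takes part in their homing, measured 47.7, 51.6 and 50.3 CPM in the CTR libraries, 53.9, 54.8 and 55.5 in the NE libraries and 96.98, 90.4 and 99.4 in the TDE libraries. The TDE libraries lay far above the others with no overlap, and the NE libraries lay slightly above the CTR libraries. Spn rose by 0.94 ± 0.11 on the log2 scale against CTR (edgeR adjusted p = 0.00113) and by 0.80 ± 0.11 against NE (edgeR adjusted p = 0.00208), in all 18 alternatives. Selplg, the P-selectin ligand PSGL-1, measured 328, 376 and 328 CPM in the CTR libraries, 333, 324 and 357 in the NE libraries and 373, 379 and 371 in the TDE libraries. Its groups overlapped between TDE and CTR, and the log2 difference was 0.12 ± 0.12 (edgeR adjusted p = 0.488). Cd34, a mark of progenitors and vessels, stayed between 2.25 and 4.09 CPM, with 0.13 ± 0.26 against CTR.

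Cd44, the receptor for hyaluronan, measured 385, 436 and 440.4 CPM in the CTR libraries, 479, 478 and 449 in the NE libraries and 329, 313 and 323 in the TDE libraries. The groups were ordered without overlap, with NE highest and TDE lowest. Cd44 fell against NE, with a log2 difference of -0.54 ± 0.12 (edgeR adjusted p = 0.0202), and differed by -0.39 ± 0.12 against CTR (edgeR adjusted p = 0.0621). The Cd44 call against NE was lost in 8 of 18 alternatives, among them without NE replicate 1 or 2 or any 1 of the 3 TDE libraries, where edgeR adjusted p ran from 0.0902 to 0.108. When the fit left out CTR replicate 1, the difference against CTR was -0.46 and passed (edgeR adjusted p = 0.000842).

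Cdh1, or E-cadherin, which holds dendritic cells in clusters and to epithelium, measured 5.96, 8.08 and 7.72 CPM in the CTR libraries, 10.2, 12.3 and 9.75 in the NE libraries and 4.10, 4.15 and 4.81 in the TDE libraries. The NE libraries were highest and the TDE libraries lowest, and no groups overlapped. Cdh1 fell by a log2 difference of -0.74 ± 0.18 against CTR (edgeR adjusted p = 0.0282) and -1.30 ± 0.18 against NE (edgeR adjusted p = 0.00265). The Cdh1 call against CTR was lost in 9 of 18 alternatives, among them without CTR replicate 2 or NE replicate 1 or any 1 of the 3 TDE libraries, where edgeR adjusted p ran from 0.0589 to 0.12. The Cdh1 call against NE held in all 18 alternatives.

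Among the receptor-type phosphatases, Ptprm passed the test and Ptprc did not. Ptprm, which joins cells by binding itself across the gap, lies at chr17:66666947-67354457 on build GRCm38, minus strand, downstream of the promoter printed above. It measured 0.317, 0.0903 and 0.151 CPM in the CTR libraries, 0.212, 0.0542 and 0.0994 in the NE libraries and 8.53, 5.02 and 6.32 in the TDE libraries. Only CTR replicate 1 and NE replicate 1 exceeded the floor among the libraries without tumor exosomes, and all TDE libraries were far above. Over pooled reads, 367 in TDE stood against 10 in CTR, a ratio of 38.2 with an exact 95% counting interval of 20.5 to 80.3, and against 7 in NE, a ratio of 54.2 with an interval of 26.0 to 136. The fitted log2 difference was 5.17 ± 0.51 against CTR (edgeR adjusted p = 0.000561) and 5.69 ± 0.53 against NE (edgeR adjusted p = 0.000382), and these calls held in all 17 alternatives in which the gene could be fitted. Ptprc, the leukocyte phosphatase CD45, measured 278, 950.4 and 1097 CPM in the CTR libraries, 1089, 1089 and 915 in the NE libraries and 1215, 1152 and 1228 in the TDE libraries. CTR replicate 1 was far below the rest, and the log2 difference was 0.63 ± 0.42 against CTR and 0.22 ± 0.42 against NE (edgeR adjusted p = 0.308 and 0.842).

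Of the 3 syndecans, Sdc3 and Sdc4 passed as higher in both comparisons, where 7.57% and 6.73% of all genes were called higher against CTR and NE. Sdc3 measured 212, 339 and 358 CPM in the CTR libraries, 361, 356 and 295 in the NE libraries and 563, 582 and 599.8 in the TDE libraries. The TDE libraries were the 3 highest, and CTR replicate 1 was the lowest of all. Sdc3 rose by 0.94 ± 0.21 on the log2 scale against CTR (edgeR adjusted p = 0.0187) and by 0.79 ± 0.21 against NE (edgeR adjusted p = 0.0392). The Sdc3 call against CTR was lost in 6 of 18 alternatives, among them without any 1 of the 3 TDE libraries, where edgeR adjusted p ran from 0.0665 to 0.0765. The Sdc3 call against NE was lost in 10 of 18 alternatives, among them without CTR replicate 2 or any 1 of the 3 NE libraries or any 1 of the 3 TDE libraries, where edgeR adjusted p ran from 0.0581 to 0.137. A gene on the opposite strand that overlaps exons of Sdc3, Gm26716, took 18.2% of the reads of the pair in CTR replicate 1 and at most 0.917% elsewhere.

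Sdc4, a syndecan of focal adhesions, measured 64.2, 45.2 and 41.7 CPM in the CTR libraries, 41.9, 39.7 and 45.6 in the NE libraries and 87.1, 94.9 and 83.7 in the TDE libraries. Its TDE libraries were the 3 highest, and CTR replicate 1 came next. Sdc4 rose by 0.81 ± 0.18 on the log2 scale against CTR (edgeR adjusted p = 0.0174) and by 1.06 ± 0.18 against NE (edgeR adjusted p = 0.00592). The Sdc4 call against CTR was lost in 6 of 18 alternatives, among them without CTR replicate 2 or any 1 of the 3 TDE libraries, where edgeR adjusted p ran from 0.0539 to 0.0712. The Sdc4 call against NE held in all 18 alternatives. Sdc1, the most abundant of the 3 per length in every group, ranged from 266 to 288 CPM without tumor exosomes and from 337 to 351 with them, and did not pass (0.29 ± 0.11 on the log2 scale, edgeR adjusted p = 0.114 against CTR). Without CTR replicate 1 it passed with 0.24 (edgeR adjusted p = 0.0206). Per length, Sdc3 to Sdc1 stood at 0.499 ± 0.114 in CTR, 0.571 ± 0.0653 in NE and 0.790 ± 0.0316 in TDE (SD, n = 3).

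Whether fibroblast exosomes alone went with a difference was asked by comparing NE-treated with CTR BMDCs. By edgeR, 0 of 41 members were called, where 0.0% of all 15028 genes were called, and limma voom with sample quality weights and DESeq2, which called 0.0104% of its genes, also called 0 members. The lowest edgeR adjusted p of a member was 0.659. With CTR replicate 1 left out, 0 members were called, where 0.0% of all genes were called higher and 0.0196% lower. At an unadjusted p under 0.05 there was 1 member, Cdh1, with 0.57 ± 0.18 on the log2 scale, where 3.24% of all genes tested met that limit. All 3 NE libraries lay above the CTR libraries for 4 members (Itga2, Spn, Cd44 and Cdh1) and below them for 1 (Icam1), where 4.05% and 3.67% of all genes did so. The differences of the members ran from -0.82 for Icam2 to 1.16 for Itga2, with a median size of 0.26 against 0.29 over all genes. The standard errors were wide for members such as Itga2, at 1.16 ± 0.58 on the log2 scale.

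Genes that work with the adhesion molecules were described from further lists. Of 35 tested genes for integrin activation and linkage to actin, 4 were called higher and 2 lower against CTR, and 2 and 2 against NE, where 16.9% and 13.9% of all genes were called in either direction, so the list stood near the background. Its median log2 difference against CTR was 0.05, where that of all genes was -0.05. Fyb, the adaptor ADAP that carries signals to integrins, measured 243, 377 and 431 CPM in the CTR libraries, 411, 405 and 382 in the NE libraries and 1061, 1036 and 1039 in the TDE libraries. Its TDE libraries lay far above the rest, with a log2 difference of 1.58 ± 0.21 against CTR (edgeR adjusted p = 0.00214). Apbb1ip, the talin recruiter RIAM, and the kinase Ptk2b rose by 0.62 ± 0.17 and 0.53 ± 0.13 against CTR, and Lpxn, or leupaxin, fell by a log2 difference of -0.64 ± 0.15 (edgeR adjusted p = 0.0414, 0.0278 and 0.0207). Apbb1ip and Ptk2b did not pass against NE (edgeR adjusted p = 0.151 and 0.0795). The other called genes of this list, Bcar1 (higher) and Lims2 (lower), had means over all libraries below 1 CPM.

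Of the integrin chains outside the 41 members, 2 were called against CTR, where 16.9% of all genes were called in either direction. The list of these chains and of selectins held 11 genes, of which 5 were tested. Itga2b, the platelet partner of Itgb3, measured 56.2, 32.6 and 25.9 CPM in the CTR libraries, 26.8, 27.1 and 28.8 in the NE libraries and 10.3, 12.3 and 10.9 in the TDE libraries. It fell by a log2 difference of -1.78 ± 0.27 (edgeR adjusted p = 0.00421), so both chains of that pair were called lower. Itga8 was called higher at a mean over all libraries below 5 CPM. Itgad was at 0 reads in all libraries. The 8 tested genes that build selectin ligands held 0 calls by edgeR in both TDE comparisons, with 1 gene in each at an unadjusted p under 0.05. Of all genes tested, 16.9% and 13.9% were called against CTR and NE, and 34.8% and 26.4% met that unadjusted limit. Without CTR replicate 1, Fut4 was called lower, at -0.97 against CTR and -0.96 against NE (edgeR adjusted p = 0.000511 and 0.000251). B4galt1 was called higher in both (0.25 and 0.26), and against NE alone Gcnt1 was lower and St3gal4 higher. That fit called 16.4% of all genes higher and 18.0% lower against CTR, and 19.2% and 21.5% against NE.

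Of 15 tested integrin ligands of the matrix, 1 was called higher and 3 lower against CTR, and the same counts held against NE. Of all genes tested, 7.57% were called higher and 9.34% lower against CTR, and 6.73% and 7.21% against NE. Fn1, or fibronectin, the ligand of Itga5 with Itgb1, measured 4205, 6637 and 10456 CPM in the CTR libraries, 10631, 10423 and 5671 in the NE libraries and 2590, 2392 and 2766 in the TDE libraries. Its TDE libraries were the 3 lowest and CTR replicate 1 was the next, and the log2 difference was -1.46 ± 0.36 against CTR (edgeR adjusted p = 0.0282). Spp1, or osteopontin, a ligand of Itgav and Itga9 integrins, measured 211, 254 and 236 CPM in the CTR libraries, 268, 239 and 327 in the NE libraries and 70.2, 56.4 and 57.4 in the TDE libraries. It fell by a log2 difference of -1.93 ± 0.17 against CTR (edgeR adjusted p = 0.000367), and Mfge8, the bridge between dying cells and Itgav integrins, by -2.28 ± 0.35 (edgeR adjusted p = 0.00426). Tgfbi rose by 0.77 ± 0.12 on the log2 scale (edgeR adjusted p = 0.00432).

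Cultures with GM-CSF can also hold macrophages and granulocytes, unless the purification named in the study's methods removed them, which carry several of these molecules, Itgam, Itgal, Itgb7 and Spn among them. The dendritic cell markers H2-Ab1, Cd74, Ccr7, Flt3 and Zbtb46 were present in all libraries, while Cd209a stayed at or below 0.163 CPM. The 12 dendritic cell markers summed to 3912 to 12521 CPM in CTR, 3690 to 4733 in NE and 1961 to 2093 in TDE, and of 11 tested, 1 was higher and 5 lower against CTR. In that comparison, to which the marker counts below also belong, 7.57% of all genes were called higher and 9.34% lower. The 10 macrophage markers summed to 32509 to 50312, 32903 to 38566 and 32092 to 33196 CPM, with 1 higher (Adgre1) and 2 lower. The 10 neutrophil markers summed to 7253 to 28985, 7646 to 10933 and 3254 to 3552 CPM, with 0 higher and 8 lower. The 10 markers of eosinophils, basophils and mast cells summed to 719 to 1898, 737 to 834 and 139 to 167 CPM, with 0 higher and 9 lower. Of 4 tested T and NK cell markers 2 were lower, of 5 B cell markers 3 were lower, of 6 platelet markers 1 was higher and 2 lower, of 3 endothelial and fibroblast markers 2 were higher, and the 1 epithelial marker tested was not called. The highest sums of the dendritic, macrophage, neutrophil, eosinophil, T and NK cell, B cell and platelet lists were all in CTR replicate 1. The part of these cells in the values of the adhesion genes was not tested.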

How the data were processed

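The members and all gene lists were chosen with earlier results of these data known. The deposited table holds expected counts (estimated counts per gene) for 9 libraries, which the authors made from reads aligned with TopHat2 2.1.1, by the submitters' processing notes, which also name DESeq2 1.24.0 and R 3.3.1. The counting program, its strand setting, build and annotation are not given in the sources used here. The table also holds gene length, used for levels per kilobase, and the authors' group means, which were not used. Groups were taken from the labels.

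Expected counts were rounded to whole numbers. Low genes were removed with filterByExpr, libraries were scaled by the trimmed mean of M values, and all 9 libraries entered 1 quasi-likelihood fit in edgeR 4.0.16 (R 4.3.3) with a mean per group. P-values were adjusted by Benjamini-Hochberg over 15028 genes and called under 0.05. The standard error is the log2 fold change divided by the root of the F statistic. After the main fit, the same fit was run on counts simulated with a single spread for all genes. The simulation held no library set apart and no shift with gene length. It cannot show how the fit behaves with a library such as CTR replicate 1. Depth was 17469782 to 21092943 reads, so 3 reads stood for 0.135 to 0.190 CPM. The alternatives were DESeq2 1.42.0, limma 3.58.1 (voom with sample quality weights), median-ratio factors, library totals, no filter, at least 10 counts in every library, the 6 libraries of the pair, a replicate block, offsets fitted to gene length (chosen after seeing the data), and each library left out. All 41 members are accounted for, with values in every library for those called and the 5 of highest level per kilobase. From each further list, at most the 3 highest and 3 lowest called log2 fold changes in TDE against CTR with a mean of at least 5 CPM were named, and other genes named there, among them Bcar1, Lims2, Itga8 and Itgad, were chosen after their values were seen. A result of 1 further list is not reported here. Gene positions came from GENCODE vM21 (GRCm38) by Ensembl identifier, and promoters from RefSeq. Plots were drawn with Python 3.11.15 and matplotlib 3.10.9.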

Additional observations from a re-analysis of the deposited data

How the results depend on the processing

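All 20 members called in TDE against CTR and all 21 called against NE kept their sign in every alternative run, and no called value reversed. Of these, 11 calls against CTR and 11 against NE passed in every alternative in which the gene was tested. Itga9, Ptprm and Cadm1 were not tested with at least 10 counts in every library, so they had 17 alternatives in place of 18. Against CTR, where 11 were higher and 9 lower, the counts were 7 and 5 with only the 6 libraries of the pair (3.90% and 4.03% of all genes), 18 and 14 with limma voom (25.8% and 26.7%), 9 and 5 with library totals (5.38% and 8.06%), 10 and 5 with no filter (2.74% and 3.26%), and 7 and 6 when a change of 1 log2 unit was also required. Against NE, where 10 were higher and 11 lower, they were 15 and 15 with the 6 libraries (20.7% and 21.3%), 16 and 16 with limma voom (27.0% and 28.3%), 7 and 7 with library totals (4.90% and 6.99%), 9 and 7 with no filter (2.49% and 2.45%), and 7 and 7 when a change of 1 log2 unit was also required. No share of all genes is given for the limit of 1 log2 unit, so its counts cannot be set beside a background. With the other settings the share of all genes called moved too, and the cause was not tested. With 1 library left out at a time, the counts against CTR ran from 8 to 15 higher and 4 to 13 lower. The shares of all genes ran from 3.47% to 16.4% and from 3.68% to 18.0%. Against NE the counts ran from 8 to 15 higher and 4 to 15 lower, with shares from 3.25% to 19.2% and from 3.03% to 21.5%. The highest counts and shares were without CTR replicate 1. The lower calls against CTR came to 5 without CTR replicate 2 (7.27% of all genes), 4 without TDE replicate 2 (3.85%) and 5 without TDE replicate 3 (3.68%). Those against NE came to 6, 5 and 6 without NE replicates 1, 2 and 3 (3.74%, 3.60% and 4.20%). Without TDE replicates 1, 2 and 3 they came to 5, 5 and 4 (3.11%, 3.22% and 3.03%). NE against CTR held 0 calls in each alternative.

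Groups share replicate numbers, but the numbers share no stated origin, and deviations from the group means of equally numbered libraries correlated at -0.03, -0.06 and 0.07 for TDE and CTR, 0.03, -0.04 and -0.07 for TDE and NE, and -0.37, 0.18 and -0.59 for NE and CTR. With the replicate block, 8 members were higher and 5 lower against CTR (4.09% and 4.46% of all genes), and 8 and 7 against NE (3.90% and 3.92%). Counts near the floor limit Itga9, Ptprm, Cadm1 and Itgae.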

Other observations

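Among the 10 tetraspanins, membrane proteins that associate with integrins and are also carried by exosomes, Cd81 was called higher (log2 difference 1.04 ± 0.16, edgeR adjusted p = 0.00432) and Cd63 lower (-1.62 ± 0.42, edgeR adjusted p = 0.0341) in TDE against CTR. As 7.57% of all genes were called higher and 9.34% lower there, the list stood near the background. Against NE, Cd81 passed (1.03 ± 0.16, edgeR adjusted p = 0.00417), Cd63 did not (-1.04 ± 0.42, edgeR adjusted p = 0.152), and Cd9 was called lower (-0.82 ± 0.21, edgeR adjusted p = 0.0327). Tspan32 was also called higher against NE, where 6.73% of all genes were called higher and 7.21% lower. Cd81 measured 54.00, 79.1 and 68.4 CPM in the CTR libraries, 65.02, 63.01 and 74.5 in the NE libraries and 140.3, 137 and 136 in the TDE libraries. Cd63 measured 1128, 433 and 340.2 CPM in the CTR libraries, 367, 371 and 529 in the NE libraries and 211, 204 and 203 in the TDE libraries, with CTR replicate 1 highest. In the fit without that library, chosen after seeing the data, the Cd63 difference against CTR was -0.92 (edgeR adjusted p = 0.00239). Among 8 proteases that cut adhesion molecules or matrix, Mmp2 and Mmp14 were called higher against CTR (2.12 ± 0.18 and 1.05 ± 0.16, edgeR adjusted p = 0.000337 and 0.00466) and Mmp9 lower (-0.84 ± 0.11, edgeR adjusted p = 0.00249). The shares of all genes called higher and lower in that comparison were 7.57% and 9.34%. Mmp2 measured 3.36, 4.56 and 4.24 CPM in the CTR libraries, 4.72, 5.75 and 4.38 in the NE libraries and 18.95, 15.8 and 18.2 in the TDE libraries, and its TDE libraries did not overlap with the others.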
